A study of Rattus norvegicus with 16 samples.

Results

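The mesothelial marker genes are 9 genes, chosen by symbol as markers of the thin cell layer on the outer surface of the heart. Not all are specific to that layer. All 9 were found among the 32754 gene entries listed for each library, and all 9 were among the 13458 genes with enough counts to be tested. They encode the surface proteins mesothelin (Msln) and mucin 16 (Muc16), the uroplakins Upk3b and Upk1b, the leucine-rich repeat protein Lrrn4, the keratin Krt19, the membrane proteins Gpm6a and Pkhd1l1, and the transcription factor Wt1. The rule is a list of symbols with no threshold on a measured value, but the list was drawn up with earlier results of these data known, so the tests are not independent of that knowledge.

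Each library came from 10 mg of right ventricle, and all rats were female Sprague Dawley aged 20 to 21 weeks. KO PAB rats were ERalpha -/- and had 10 weeks of pulmonary artery banding, a constriction of the pulmonary artery that loads the right ventricle with pressure. WT PAB rats were wild type with the same banding, KO SHAM rats were ERalpha -/- with sham surgery, and WT SHAM rats were wild type with sham surgery. There were 4 libraries in each group and 16 in total, and a library is named by its group with its replicate number (KO PAB 3). Nothing in the labels gives the place in the ventricle a piece came from. Nor do they say whether replicates are different rats, so the p-values cover only the spread among these libraries, which may be technical.

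The epicardium is a sheet of mesothelial cells over the heart muscle. Mesothelial cells carry a glycoprotein coat that lets organs slide against each other, and they keep keratins and cell junctions as an epithelium does. Wt1, Tbx18 and Tcf21 are known as regulators of the embryonic epicardium, from which fibroblasts and mural cells of the coronary vessels arise. The layer is far thinner than the wall under it, so a piece of ventricle holds it only where the outer surface is included, and in total RNA fewer mesothelial cells and less RNA per cell cannot be told apart.

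RefSeq promoter sequences of the rat assembly GRCr8 were matched to 5 of the 9 members. Of these, 4 are shown because Upk3b, Upk1b and Lrrn4 moved together over the libraries while Wt1 did not. Each is the 250 bases before the transcription start, on the strand of the gene, at chr12:26274241-26274490 (minus strand), chr11:75459131-75459380 (plus strand), chr3:140603987-140604236 (minus strand) and chr3:112021759-112022008 (plus strand). Capitals mark matches to GGAATG, the motif of TEAD factors, or to CAGCTG, an E-box bound by TCF21, on either strand.
Upk3b: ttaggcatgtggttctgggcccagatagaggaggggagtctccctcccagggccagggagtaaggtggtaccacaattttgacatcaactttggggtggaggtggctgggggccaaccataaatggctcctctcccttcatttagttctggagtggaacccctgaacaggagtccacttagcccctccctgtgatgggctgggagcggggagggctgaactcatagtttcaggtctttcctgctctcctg
Upk1b: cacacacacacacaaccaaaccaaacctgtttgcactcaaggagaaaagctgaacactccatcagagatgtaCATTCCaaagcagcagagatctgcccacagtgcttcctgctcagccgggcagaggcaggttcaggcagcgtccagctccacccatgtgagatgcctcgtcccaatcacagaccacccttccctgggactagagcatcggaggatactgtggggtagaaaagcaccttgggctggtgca
Lrrn4: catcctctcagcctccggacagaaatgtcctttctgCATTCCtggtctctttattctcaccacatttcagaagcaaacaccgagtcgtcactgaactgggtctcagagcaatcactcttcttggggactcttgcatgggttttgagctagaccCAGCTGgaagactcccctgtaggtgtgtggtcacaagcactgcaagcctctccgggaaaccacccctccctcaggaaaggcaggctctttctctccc
Wt1: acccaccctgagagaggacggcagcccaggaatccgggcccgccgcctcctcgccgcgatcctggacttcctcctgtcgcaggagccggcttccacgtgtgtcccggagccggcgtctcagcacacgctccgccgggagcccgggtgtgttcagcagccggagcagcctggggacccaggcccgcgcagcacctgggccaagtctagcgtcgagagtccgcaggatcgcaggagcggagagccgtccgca
Windows of 300 bases were searched, from 250 before to 50 after the start. Upk1b held 1 match to GGAATG, and Lrrn4 held 1 match to GGAATG and 1 to CAGCTG. Neither was found in the windows of Upk3b, Gpm6a and Wt1, and no window held GNGTGGGNG, the WT1 motif, or AGATAA, the GATA motif. Of 33469 rat promoter windows, 14.2% held GGAATG, 15.1% CAGCTG, 12.9% GNGTGGGNG and 11.6% AGATAA. No matches overlapped, and a match describes the letters only.

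Libraries held 22168110 to 34718633 counts. Esr1, the gene of estrogen receptor alpha, had 0.248 to 0.589 CPM (counts scaled to library size with TMM factors) in the 8 KO libraries and 2.69 to 5.53 CPM in the 8 WT libraries. Tnnt2, cardiac troponin T, had 3085 to 5832 CPM, so every piece held heart muscle. It was lowest in WT SHAM 2 (3085 CPM), KO SHAM 4 (3429) and WT SHAM 3 (3760), followed by WT PAB 2 (4212). Myh6, a heart muscle myosin, was instead lowest in KO PAB 3 (9521 CPM) and KO PAB 4 (10450), followed by WT SHAM 2 (11600). The part of muscle content in the differences below was not tested. Adipoq and Plin1, which define adipocytes, summed to 5.97 CPM in KO PAB 3, 13.9 in KO SHAM 4, 38.7 in WT SHAM 3 and 56.9 in WT SHAM 2. In the other 12 libraries that sum was at most 0.452 CPM. Results are therefore also given without the 3 sham libraries of this kind.

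Mesothelin is a surface protein anchored in the membrane by a lipid, and its partner in cell adhesion is mucin 16. Msln had 0.0377, 0, 0.770 and 0.780 CPM in KO PAB 1 to 4 and 0.961, 3.52, 0.0319 and 1.003 CPM in WT PAB 1 to 4. It had 1.80, 0.806, 7.90 and 42.5 CPM in KO SHAM 1 to 4 and 7.84, 43.9, 20.45 and 0.164 CPM in WT SHAM 1 to 4. The banded libraries were all low, whereas the sham libraries ranged widely, with WT SHAM 4 among the banded values and WT SHAM 2 and KO SHAM 4 above 40 CPM. Every KO PAB library was below every KO SHAM library, by a narrow margin, and the WT groups overlapped because WT SHAM 4 was low. Group means were 0.397 ± 0.437 CPM (KO PAB), 1.38 ± 1.497 (WT PAB), 13.3 ± 19.8 (KO SHAM) and 18.1 ± 19.15 (WT SHAM), each with the SD over 4 libraries, so the SD of every group was about as large as its mean or larger.

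Muc16 was highest in the same 6 libraries as Msln, in the same order, and the libraries below them differed in order. It had 0, 0, 0.403 and 0.142 CPM in KO PAB and 0.154, 0.872, 0.0639 and 0.424 CPM in WT PAB. It had 0.279, 0.230, 3.99 and 14.5 CPM in KO SHAM and 2.17, 16.5, 6.34 and 0 CPM in WT SHAM. The counts behind these levels were 0 to 27 in the banded libraries and 0 to 565 in the sham libraries, so the low end rests on few reads. The KO groups overlapped for Muc16, since KO PAB 3 was above KO SHAM 1 and KO SHAM 2. A count of 0 allows up to 3 counts in a library, and this limit covers counting error only.

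Upk3b and Upk1b encode uroplakins, membrane plaque proteins best known from the bladder lining, and are also markers of mesothelium. Upk3b had at most 0.330 CPM in KO PAB and 0.582 in WT PAB. KO SHAM 1 to 4 had 0.186, 0.0767, 1.15 and 11.9 CPM, and WT SHAM 1 to 4 had 0.876, 11.9, 4.58 and 0 CPM. Upk1b ranged over 0.113 to 0.513 CPM for KO PAB, 0.0319 to 1.10 for WT PAB, 0.192 to 11.1 for KO SHAM and 0.123 to 11.3 for WT SHAM. Both separated the same 5 sham libraries (WT SHAM 2, KO SHAM 4, WT SHAM 3, KO SHAM 3, WT SHAM 1) from all banded libraries. The other uroplakins were close to absent from the counts, with at most 6 counts of Upk1a, 1 of Upk3a and 0 of Upk2 in any library.

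Lrrn4, a leucine-rich repeat membrane protein, had at most 0.177 CPM in KO PAB and 0.775 in WT PAB, against at most 7.82 in KO SHAM and 11.2 in WT SHAM. Krt19, an acidic keratin of simple epithelia, had at most 0.532 CPM in KO PAB and 0.743 in WT PAB, against at most 7.25 in KO SHAM and 10.04 in WT SHAM. The highest banded library was WT PAB 2 for Lrrn4 and Krt19, as it was for Msln, Muc16, Upk3b and Upk1b. For each of these 6 genes, 5 of 8 sham libraries were above every banded library, and in the same descending order.

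The summed level of the 6 genes was 0.151, 0.343, 2.31 and 2.27 CPM in KO PAB 1 to 4 and 1.69, 7.59, 0.287 and 2.70 CPM in WT PAB 1 to 4. It was 2.94, 1.73, 19.1 and 95.02 CPM in KO SHAM 1 to 4 and 15.95, 105.0, 43.7 and 0.329 CPM in WT SHAM 1 to 4. WT SHAM 4, with 8 counts over the 6 genes, was as low as the lowest banded libraries, and KO SHAM 1 and KO SHAM 2 lay within the range of WT PAB. Of the level summed over all 16 libraries, WT SHAM 2, KO SHAM 4 and WT SHAM 3 held 80.9%, and these with KO SHAM 3 and WT SHAM 1 held 92.6%. High levels thus marked 5 of the 8 sham libraries and not the other 3.

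**Figure D1:**
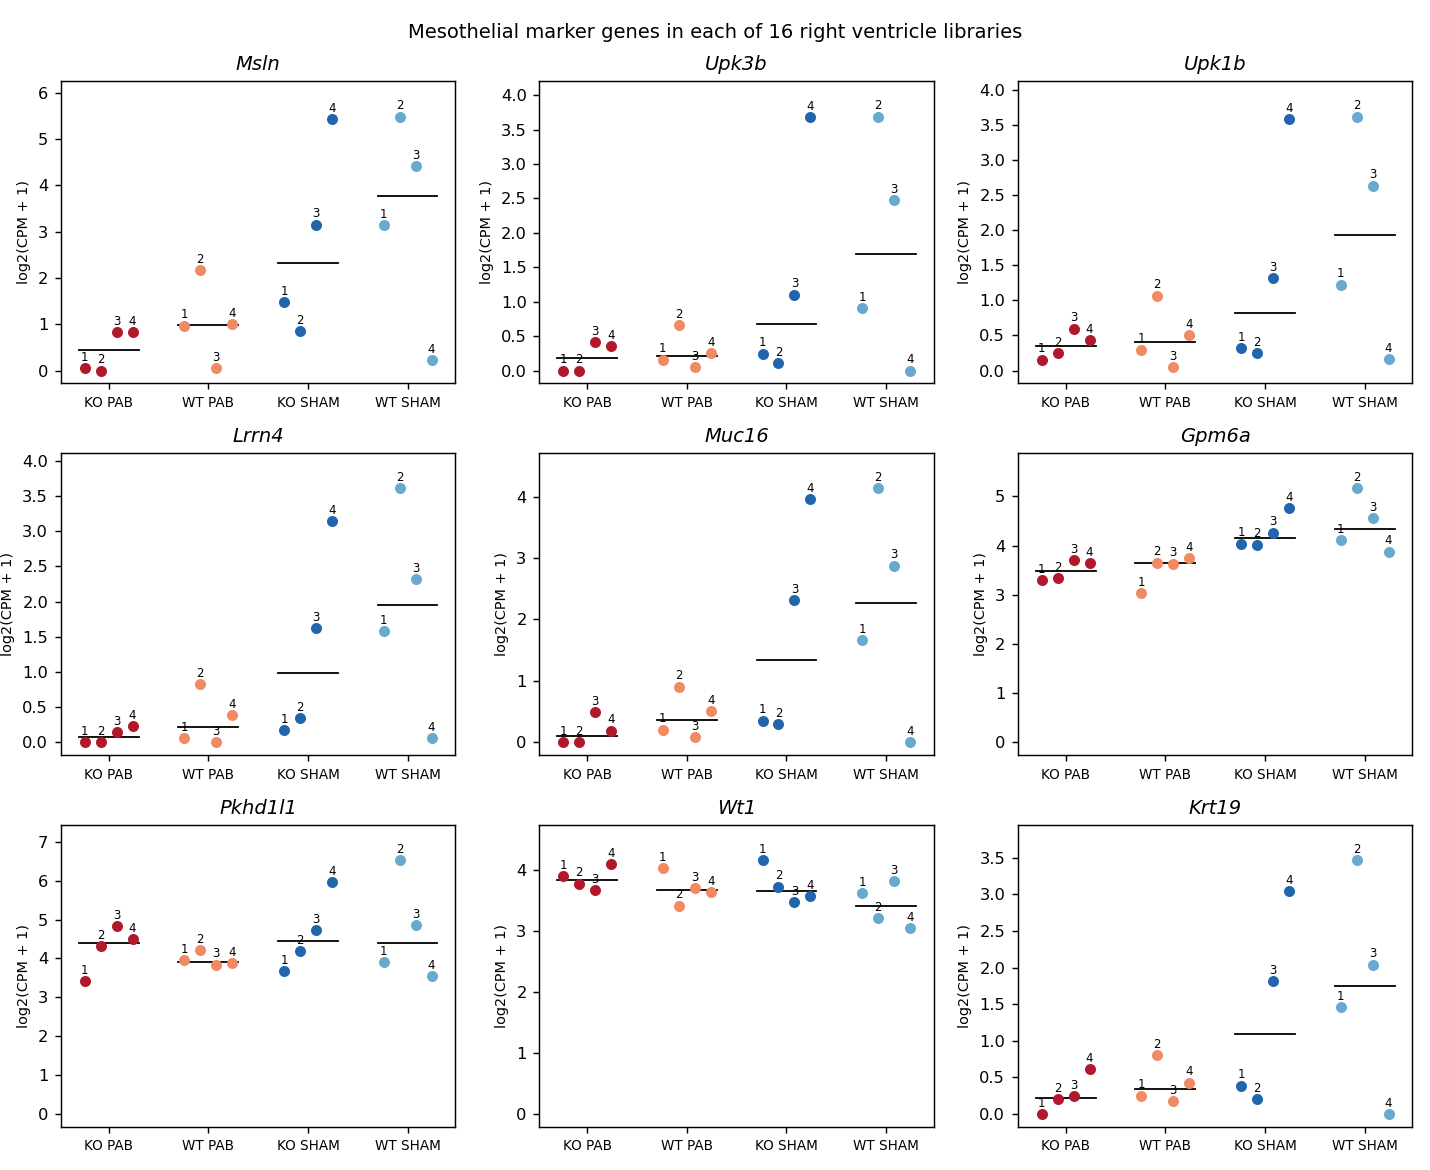
Level of each member in every library, as log2(CPM + 1), by group, with the replicate number beside each point and a line at the group median. For 6 of the 9 genes the same 5 sham libraries lie above all 8 banded libraries while WT SHAM 4, KO SHAM 1 and KO SHAM 2 lie among them, and Wt1 shows no such split.

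Gpm6a, Pkhd1l1 and Wt1 had at least 7.19 CPM in every library, whereas each of the 6 had at most 0.128 CPM in WT PAB 3. Gpm6a is a neuronal membrane glycoprotein of the proteolipid family that is also found on mesothelium. It had 8.85, 9.07, 11.99 and 11.45 CPM in KO PAB and 7.19, 11.6, 11.4 and 12.4 CPM in WT PAB. It had 15.5, 15.2, 18.2 and 26.1 CPM in KO SHAM and 16.3, 34.8, 22.6 and 13.7 CPM in WT SHAM. All 8 banded libraries were below all 8 sham libraries, and Gpm6a was the only member without overlap in both genotypes. Its means were 10.3 ± 1.61 CPM (KO PAB), 10.6 ± 2.34 (WT PAB), 18.7 ± 5.07 (KO SHAM) and 21.85 ± 9.43 (WT SHAM). Separation downward within both genotypes, each taken by itself, was seen in 0.483% of the genes tested. This is a weaker condition than all 8 banded below all 8 sham libraries, whose share was not computed. Within KO, separation was seen in 4.32% of genes, where 2 of 9 members, Gpm6a and Msln, had it. Within WT it was seen in 2.33%, where Gpm6a alone had it.

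Pkhd1l1 encodes fibrocystin-L, a large membrane protein related to the product of the polycystic kidney disease gene Pkhd1. It had 9.75, 18.9, 27.3 and 21.6 CPM in KO PAB and 14.6, 17.6, 13.3 and 13.7 CPM in WT PAB. It had 11.7, 17.2, 25.6 and 61.7 CPM in KO SHAM and 14.1, 91.2, 27.9 and 10.7 CPM in WT SHAM. The 3 sham libraries with adipocyte transcripts were the highest, and the other 5 sham libraries lay within the range of the banded ones.

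Wt1, a zinc finger transcription factor, is also known from endothelial cells of the heart. It had 13.9, 12.7, 11.8 and 16.1 CPM in KO PAB and 15.3, 9.66, 12.04 and 11.4 CPM in WT PAB. It had 16.9, 12.2, 10.07 and 10.9 CPM in KO SHAM and 11.3, 8.22, 13.04 and 7.28 CPM in WT SHAM. The groups overlapped throughout, and WT SHAM 2, which was highest in 8 other members, was among the lowest in Wt1. Group means were 13.6 ± 1.86 CPM (KO PAB), 12.1 ± 2.35 (WT PAB), 12.5 ± 3.03 (KO SHAM) and 9.97 ± 2.68 (WT SHAM), each with the SD over 4 libraries, and their differences were of the size of that spread.

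Among themselves the members fell into a tight set and 3 others. Over the 16 libraries, which share depth and scaling across genes, Spearman's rho was 0.909 to 0.976 for the 15 pairs among Msln, Muc16, Upk3b, Upk1b, Lrrn4 and Krt19. It was 0.734 to 0.873 for Gpm6a with these 6, 0.574 to 0.782 for Pkhd1l1 and -0.463 to -0.280 for Wt1. These values are a description of these libraries.

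**Figure D2:**
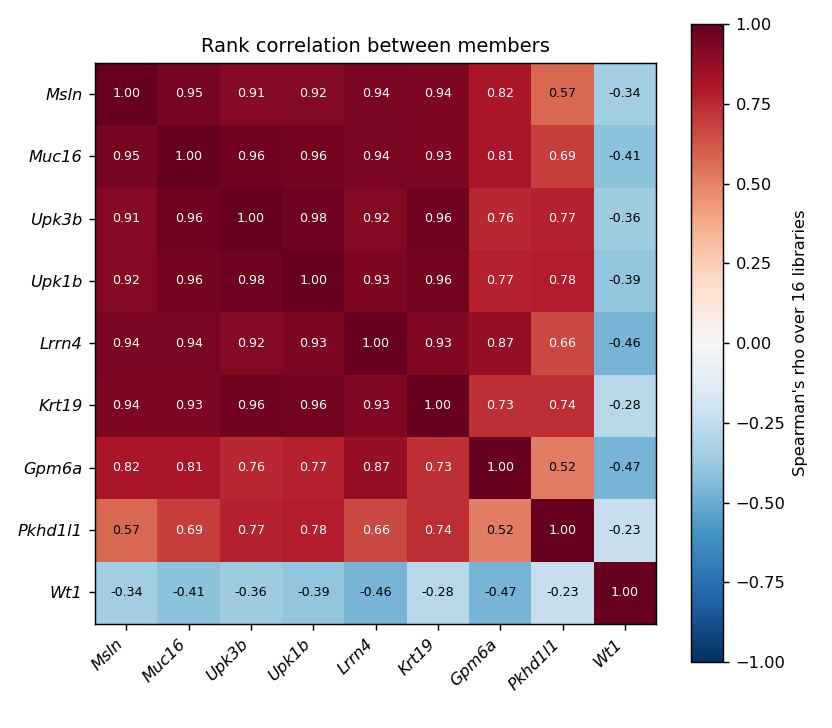
Spearman's rho between log2(CPM + 1) of each pair of members over 16 libraries. Msln, Muc16, Upk3b, Upk1b, Lrrn4 and Krt19 form a block at 0.909 or above, and Wt1 is negative with every other member.

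The share of each gene in the summed counts of the 6 was compared between the 6 libraries that held most of them. Msln took 46.4% of their summed counts in WT PAB 2 (95% Wilson interval 40.1 to 52.8). It took 44.7% in KO SHAM 4 (43.1 to 46.4), 41.9% in WT SHAM 2 (40.3 to 43.5) and 46.8% in WT SHAM 3 (44.0 to 49.6). It took 41.3% in KO SHAM 3 (36.9 to 45.9) and 49.1% in WT SHAM 1 (43.9 to 54.4). The share of Upk3b was 7.66% in WT PAB 2 (4.90 to 11.8). It was 12.5% in KO SHAM 4 (11.4 to 13.6), 11.3% in WT SHAM 2 (10.4 to 12.4) and 10.5% in WT SHAM 3 (8.89 to 12.3). It was 6.00% in KO SHAM 3 (4.16 to 8.59) and 5.49% in WT SHAM 1 (3.54 to 8.42). The Upk3b intervals of KO SHAM 3 and WT SHAM 1 lay below those of the 3 sham libraries with adipocyte transcripts. Muc16 took 11.5% in WT PAB 2 (8.02 to 16.2) and 20.9% in KO SHAM 3 (17.4 to 24.9), and 13.6% to 15.8% in the other 4. Krt19 took 9.79% in WT PAB 2 (6.61 to 14.3), 13.1% in KO SHAM 3 (10.3 to 16.5) and 7.13% in WT SHAM 3 (5.81 to 8.71). For Msln the interval of WT SHAM 2 (40.3 to 43.5) lay below that of WT SHAM 3 (44.0 to 49.6). Lrrn4 took 8.23% in KO SHAM 4 (7.36 to 9.19) and 10.7% in WT SHAM 2 (9.71 to 11.7). The make-up of the 6 genes thus differed between libraries by more than counting error for Upk3b, Muc16, Krt19, Msln and Lrrn4. Intervals cover counting error only.

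The first comparison asked whether these transcripts fall with banding, averaged over both genotypes. Msln, Lrrn4, Muc16 and Gpm6a fell, 4 of 9 members, where 1.85% of all genes tested fell. No member rose, where 3.24% of all genes did, and 5.09% passed in either direction. The log2 fold change, PAB over SHAM, was -4.37 for Msln (SE 1.07, adjusted p 0.0322), -4.49 for Lrrn4 (SE 1.11, adjusted p 0.0334) and -4.55 for Muc16 (SE 1.13, adjusted p 0.0335). It was -0.95 for Gpm6a (SE 0.19, adjusted p 0.0126), smaller but with less spread. These are edgeR quasi-likelihood tests with Benjamini-Hochberg adjustment over all genes, at a threshold of 0.05.

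The other members did not pass. Upk3b differed by -4.30 (adjusted p 0.0508), Krt19 by -3.46 (0.0523) and Upk1b by -3.39 (0.0579), each with wide errors of 0.96 to 1.18. Pkhd1l1 differed by -0.94 (SE 0.44, adjusted p 0.222) and Wt1 by 0.20 (SE 0.14, adjusted p 0.427). The median over the 9 members was -3.46, against -0.02 over all genes. The filter on low counts asks for 4 libraries above 0.36 CPM. Lrrn4 and Upk3b had 1 banded and 5 sham libraries above it, Krt19 had 2 and 5, and Muc16 and Upk1b had 3 and 5. These 5 genes, with the called Lrrn4 and Muc16 among them, entered the test through the sham group, so some difference was built in, and neither the count nor the median is support for a fall. By other tools 7 members passed with DESeq2, where 1337 of all genes passed, and 1, Gpm6a, with limma-voom, where 634 did. The main fit called 685 genes.

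Leaving out WT SHAM 2, WT SHAM 3 and KO SHAM 4, only Gpm6a passed, at -0.57 (SE 0.13, adjusted p 0.0305), where 3.17% of all genes fell. Msln then differed by -2.30 (SE 0.98, adjusted p 0.176), Lrrn4 by -2.59 (0.156), Muc16 by -2.43 (0.184), Krt19 by -1.69 (0.281), Upk3b by -1.19 (0.484) and Upk1b by -0.88 (0.511). Pkhd1l1 turned to 0.18 (0.689). Leaving out single libraries, the calls of Msln, Lrrn4 and Muc16 held in 6, 7 and 8 of 16 fits, with the lowest and highest adjusted p over them at 0.0166 and 0.0766. Gpm6a passed in all 16, with adjusted p of 0.00712 to 0.0336. The number of members called was 1 without WT SHAM 2, WT SHAM 3, KO SHAM 4, WT PAB 1, WT PAB 3, KO PAB 1, KO PAB 2 or KO PAB 4, 2 without KO PAB 3, and 7 without WT SHAM 4 or KO SHAM 1.

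**Figure D3:**
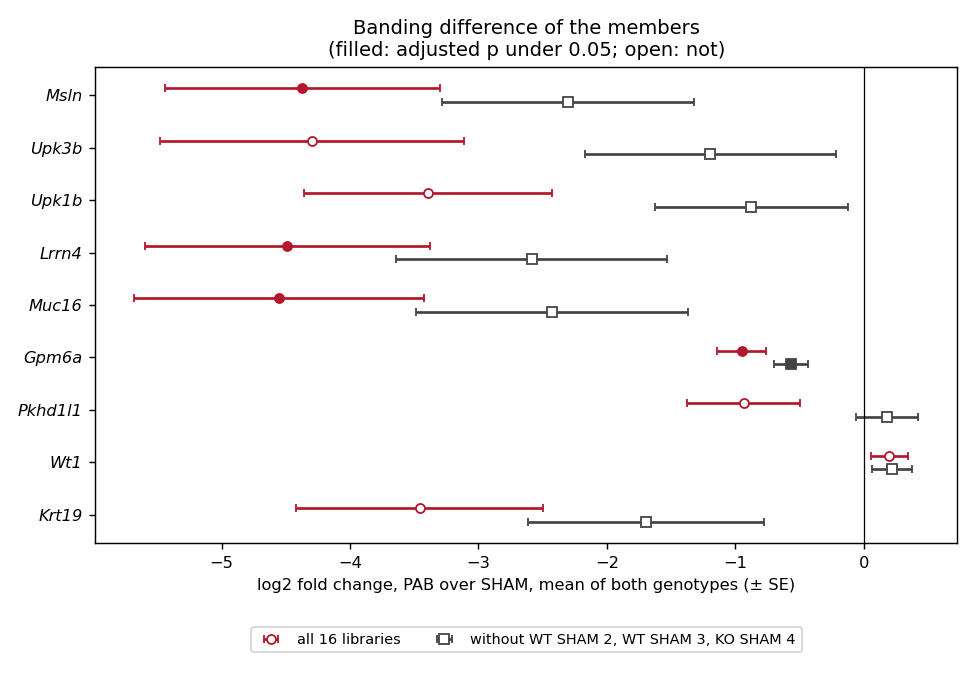
Log2 fold change of each member, PAB over SHAM and averaged over both genotypes, with its SE, from all 16 libraries (circles) and without the 3 sham libraries with adipocyte transcripts (squares). Filled symbols passed an adjusted p of 0.05: Msln, Lrrn4, Muc16 and Gpm6a with all libraries, and Gpm6a alone, at -0.57, without the 3.

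Within each genotype no member passed the edgeR test, where 0.632% of all genes passed in KO, 0.119% as lower, and 0.00743% passed in WT, with 0% as lower. In KO the differences were -5.03 for Msln (SE 1.61, adjusted p 0.147), -5.07 for Muc16, -5.06 for Lrrn4 and -0.86 for Gpm6a (SE 0.27, adjusted p 0.143). In WT they were -3.71 for Msln (SE 1.42, adjusted p 0.378), -4.03 for Muc16, -3.91 for Lrrn4 and -1.04 for Gpm6a (SE 0.27, adjusted p 0.233). At an unadjusted p under 0.05 there were 7 members in each genotype. Of all 13458 genes, 2101 in KO and 1575 in WT were under it. The 7 included Lrrn4, Upk3b, Krt19, Muc16 and Upk1b, which entered the test through the sham group. Some difference was thus built in, and this number is not support for a fall. The limma-voom fit called 0 members in each genotype. DESeq2 called 2 in KO, Msln and Gpm6a, and 1 in WT, Gpm6a. The shares above are those of edgeR, and the share of all genes called by DESeq2 within a genotype is not given here.

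The next comparison asked whether loss of ERalpha changes these transcripts. No member passed in KO SHAM over WT SHAM, with log2 fold changes of -0.74 to 0.33 and an adjusted p of 0.996 for each, or in KO PAB over WT PAB, with -1.89 to 0.39 and 0.999. None had an unadjusted p under 0.05 in either, and DESeq2 and limma-voom called 0 as well. Of all genes, 0.00743% passed in each. KO SHAM held 1 and WT SHAM 2 of the 3 highest libraries, and the sham groups overlapped for every member. The difference of the banding effects between genotypes did not pass for any member either, at -1.33 for Msln (SE 2.07), 0.18 for Gpm6a (SE 0.38) and -0.16 for Wt1 (SE 0.29), where 0% of all genes passed. For Msln the SE allows differences of several fold either way.

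Mesothelial and adipocyte transcripts coincided in 3 sham libraries and parted in others. KO PAB 3 had 142 counts of Adipoq with a sum of 2.31 CPM over the 6 mesothelial genes. KO SHAM 3 and WT SHAM 1 had sums of 19.1 and 15.95 CPM with 1 count of Adipoq each. Smooth muscle transcripts were likewise high in the 3, where Myh11, smooth muscle myosin, had 503 CPM in KO SHAM 4, 1031 in WT SHAM 2 and 291 in WT SHAM 3. Myh11 was 29.1 to 82.3 CPM in the banded libraries, and 83.2 CPM in KO SHAM 3 and 34.8 in WT SHAM 1. In KO SHAM 3 and WT SHAM 1 the mesothelial genes were thus above all banded libraries with adipocyte and smooth muscle genes at or near the level of banded ones. Fibroblast genes also summed highest in the 3. Col1a1, a collagen gene, had 273 CPM in KO SHAM 4, 288 in WT SHAM 2 and 173 in WT SHAM 3, against at most 166 in a banded library. The endothelial gene Cdh5 was not raised there, at 96.5, 96.7 and 83.6 CPM, against 92.5 to 136.5 in the banded libraries.

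**Figure D4:**
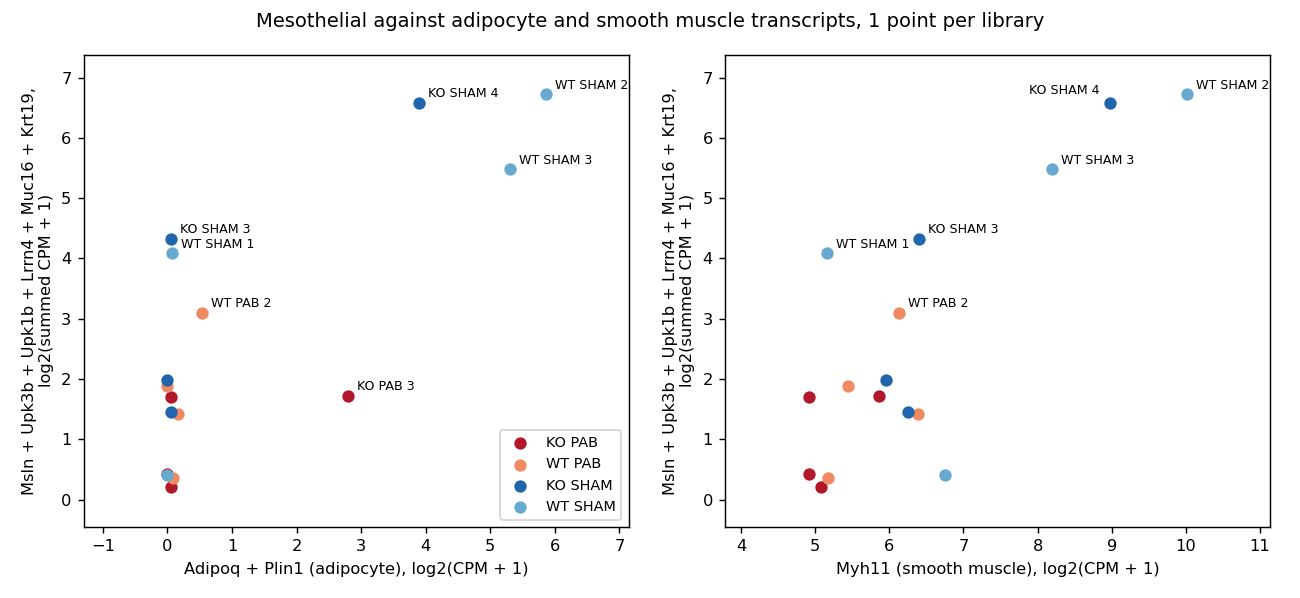
Summed level of Msln, Upk3b, Upk1b, Lrrn4, Muc16 and Krt19 in each library, as log2(summed CPM + 1), against Adipoq plus Plin1 (left) and Myh11 (right), as log2(CPM + 1). WT SHAM 2, WT SHAM 3 and KO SHAM 4 are high on every axis, KO SHAM 3 and WT SHAM 1 on the mesothelial axis only, and KO PAB 3 has adipocyte transcripts with a mesothelial sum of 2.31 CPM.

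Markers of other cells are given for banding over both genotypes. Of 10 smooth muscle genes 3 fell (Myh11, Tagln, Cnn1), where 1.85% of all genes fell, and 1 rose (Myocd), with summed levels of 1878 to 2005 CPM (KO PAB), 1713 to 2418 (WT PAB), 1706 to 2635 (KO SHAM) and 1646 to 4166 (WT SHAM). Most of the sum in each KO PAB library came from Des, at 1492 to 1566 CPM, while Myh11 had 29.1 to 57.3 there. WT SHAM 2 differed, with 910 CPM of Des and 1031 of Myh11. The summed levels are therefore not a measure of smooth muscle content. Without the 3 sham libraries none of the 10 smooth muscle genes fell, Myh11 was at -0.64 (adjusted p 0.213), and Myocd still rose. Of 10 adipocyte genes none passed (edgeR), with a median of -2.76. Their summed levels were 271 to 325 CPM (KO PAB), 303 to 346 (WT PAB), 285 to 391 (KO SHAM) and 317 to 483 (WT SHAM). Fabp4 held 54.2% to 87.5% of this sum, and KO SHAM 2, with 1 count of Adipoq, was among its 3 highest libraries. The sum therefore did not follow Adipoq and Plin1 by library. The part of smooth muscle cells and adipocytes in the fall of the members was not tested. The Schwann cell cadherin Cdh19 fell, with a log2 fold change of -0.84 (adjusted p 0.0360), and passed also without the 3 sham libraries, at -1.01 (adjusted p 0.0342). Gpm6a is known from nerve tissue, and the part of nerve-associated cells in its fall was not tested. None of 7 endothelial (median -0.03), 9 fibroblast (-0.24), 6 lymphatic (-0.37), 7 cardiomyocyte (0.29) and 3 cartilage and valve genes (-1.25) passed, and of 8 leukocyte genes (-0.33) 1 fell, the T cell gene Cd2. Without the 3 sham libraries the fibroblast matrix gene Postn (1.34, adjusted p 0.0468) and the lymphatic receptor gene Flt4 (0.62, adjusted p 0.0424) rose, and Cd2 no longer passed (-1.17, adjusted p 0.0726). The cartilage genes Comp and Chad differed by -1.25 and -1.05 with all libraries, and by 2.33 (adjusted p 0.122) and 3.40 (adjusted p 0.132) without the 3.

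Genes listed with mesothelium beyond the members included a few that passed. Of 18 tested, 2 fell with banding, where 1.85% of all genes fell: Bnc1, a zinc finger protein of epithelia (-4.22, SE 1.15, adjusted p 0.0492), and the matrix protein gene Efemp1 (-1.47, SE 0.31, adjusted p 0.0174). None rose, and the median was -1.16, against -0.02 over all genes. Nkain4 differed by -2.42 (adjusted p 0.0520), the placental cadherin Cdh3 by -3.01 (0.0633) and Krt8 by -3.22 (0.0762). Bnc1 reached 0.106 CPM among KO PAB, 0.258 among WT PAB, 2.20 among KO SHAM and 7.46 among WT SHAM libraries. No banded library was above 0.36 CPM, so Bnc1 entered the test through the sham group and some difference was built in. The same held for Nkain4, with at most 0.257 CPM in KO PAB and 0.258 in WT PAB. Cdh3 and Krt8 had fewer than the 4 banded libraries above 0.36 CPM that the filter asks for, so they too entered through the sham group. The median of this list is therefore not support for a fall. Krt8, a basic keratin that pairs with acidic ones such as Krt19, had 6.59 CPM in KO SHAM 4, 6.67 in WT SHAM 2 and 2.18 in WT SHAM 3, and 0 to 0.595 CPM in the other 13 libraries. The acidic keratin Krt18 had 2.69, 4.30 and 0.895 CPM in these 3. It had 0.267 to 0.709 CPM in KO PAB and 0.0319 to 0.463 in WT PAB, against 0.031 to 0.170 in the other 5 sham libraries. Without the 3 sham libraries Krt18 differed by 1.91 (SE 0.63, adjusted p 0.0834) and did not pass. Without the 3 sham libraries none of this list fell, and Ildr2 (3.89, SE 0.91, adjusted p 0.0341) and the chaperone clusterin, Clu (0.46, SE 0.13, adjusted p 0.0467), rose.

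Genes of the epicardium and its regulators changed in both directions. Of 14 epicardial genes 1 fell, the homeobox gene Meis1 (-0.43, SE 0.10, adjusted p 0.0196), where 1.85% of all genes fell. The cardiac transcription factor Gata4 (0.35, SE 0.07, adjusted p 0.00894) and the transglutaminase Tgm2 (0.70, SE 0.18, adjusted p 0.0404) rose, where 3.24% of all genes rose. The median was -0.19. Tbx18 differed by -1.07 (SE 0.30, adjusted p 0.0507) and Aldh1a2, which makes retinoic acid, by -1.34 (SE 0.42, adjusted p 0.0753). Tbx18 had 6.94 CPM in KO SHAM 4 and 7.99 in WT SHAM 2, and 1.28 to 3.87 in the other 14 libraries. Without the 3 sham libraries Meis1, Gata4 and Tgm2 kept their calls and directions. Gata6 also fell (-0.34, SE 0.08, adjusted p 0.0305), where 3.17% of all genes fell. Heart muscle itself expresses Gata4 and Gata6.

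The 10 genes whose pattern was most like the members were found by Pearson's r, over 16 libraries, with the mean z-score of the 9 members, among 10966 genes. They were Wfdc21 (r 0.981), Dhrs9 (0.979), Cgn (0.975), Tm4sf4 (0.971), Slc39a8 (0.965), Krt8 (0.959), Gpc3 (0.956), Bicdl1 (0.955), Cdon (0.952) and Slc26a3 (0.951), with Spearman's rho of 0.591 to 0.908. Wfdc21 belongs to the whey acidic protein family, Cgn is the tight junction protein cingulin, Gpc3 a glypican, Slc39a8 a metal ion transporter and Slc26a3 an anion exchanger. The highest 3 libraries were WT SHAM 2, KO SHAM 4 and WT SHAM 3 for all 10. Wfdc21 had at most 0.420 CPM in a banded and 10.3 CPM in a sham library, and Cgn at most 0.270 CPM in a banded and 9.37 CPM in a sham library. The genes were chosen on the same 16 libraries for a pattern that is high in sham and low in banded pieces, so their shared top 3 libraries and low banded levels follow from the choice. Their log2 fold changes with banding are a description only. They were -6.04 for Wfdc21, -4.06 for Cgn, -3.695 for Dhrs9, -3.22 for Krt8 and -2.62 for Gpc3. For the others they were -2.56 for Tm4sf4, -2.15 for Bicdl1, -1.55 for Slc26a3, -1.26 for Slc39a8 and -0.88 for Cdon.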

How the data were processed

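RNA sequencing of 16 right ventricle libraries was analysed. Per the submitters' processing notes, reads were processed with STAR 2.5.3a and RSEM 1.3.0 on the rat build Rnor_6.0; the annotation, the strand setting and the rounding are not given in the sources used here. The deposited values are expected counts (estimated counts), whole numbers of at least 0 per gene symbol, unscaled between libraries and not corrected for length, so levels are compared within a gene only. Without a known strand setting, reads of a gene and of an antisense partner cannot be told apart.

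Libraries were scaled by TMM, genes filtered by filterByExpr (minimum count 10), and a robust quasi-likelihood model of the 4 group means was fitted to all 16 libraries with edgeR 4.0.16 in R 4.3.3. This left 13458 genes with 99.9% or more of every library's counts. Adjusted p-values are Benjamini-Hochberg over all genes, with a threshold of 0.05. The SE is the log2 fold change over the square root of F. The procedure was tested on simulated data. Named genes were the 9 members, up to 5 genes with the smallest p from each of 3 mesothelial and epicardial lists, the 10 most alike genes, and defining markers. Gata6, Clu and single list genes outside this rule were named after their values were seen. The members and lists were chosen with earlier results of these data known. Alternatives were RLE factors, DESeq2 1.42.0, limma-voom 3.58.1, other filters, a replicate block, fits to the compared groups alone, a covariate, a minimum fold of 1.5 and leaving out libraries. Replicate numbers did not pair the samples: 7 of 24 same-numbered pairs had a correlation of deviations over 0.1. Replicates of a group differed beyond sampling noise (chi-square per degree of freedom at least 18.1). Promoters came from RefSeq (GRCr8), not the build of the counts. The Schwann cell list as a whole is not reported here.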

Additional observations from a re-analysis of the deposited data

Results flagged for a closer look

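Over 40 sets of 4 libraries (the 9 members and the sum of 6 of them, each in 4 groups), a single library stood far from the other 3 in 3 cases, all KO SHAM 4. It had 42.5 CPM of Msln, against 7.90 in the next KO SHAM library, 11.9 CPM of Upk3b, against 1.15, and 11.1 CPM of Upk1b, against 1.49. Chance gives such a flag in about 1 of 20 sets, and the members move together, so these 3 are not separate observations. In WT SHAM, where WT SHAM 2 and WT SHAM 3 were both high, no library stood alone by this measure.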

How the results depend on the processing

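With banding averaged over both genotypes, 4 members passed with all 16 libraries, 7 with DESeq2, 2 with a replicate block (Lrrn4 and Gpm6a), and 1, Gpm6a, with limma-voom, with no filter on low counts, without the 3 sham libraries with adipocyte transcripts, without these and KO PAB 3, or with Adipoq and Plin1 as a covariate. None passed with a minimum fold of 1.5 or with the summed adipocyte list as a covariate, of which Fabp4 held 54.2% to 87.5%. Leaving out each library in turn gave 1 to 7 members. The fits without KO PAB 3 and with Adipoq and Plin1 were chosen after seeing the data. Within a genotype the counts were 0, but 2 in KO and 1 in WT with DESeq2, and 1 in KO with Adipoq and Plin1 as a covariate. The share of all genes called in these alternative fits within a genotype is not given here. Pkhd1l1 changed sign. Averaged over genotypes it was 0.18 without the 3 sham libraries and 0.073 without the 4 libraries. In KO it was 0.10 without the 3 and lay between -0.85 and 0.10 over single libraries left out, with 0.10 without KO SHAM 4. In WT it was 0.26 without the 3, 0.26 without the 4 and 0.21 with Adipoq and Plin1 as a covariate. The cause of these changes was not tested. All genes called numbered 685, against 1337 with DESeq2, 98 with the adipocyte list covariate, 23 with the minimum fold and 356 to 964 leaving out single libraries. Of 742 refits of single members in the 3 banding comparisons, 666 kept direction and call, 52 lost the call, 17 gained one and 7 changed sign. Most of the 666 had no call to lose, since only Msln, Lrrn4, Muc16 and Gpm6a passed in the main fit, averaged over genotypes. There Msln kept its call in 9 of 27 alternatives, Lrrn4 and Muc16 in 11 of 27 each and Gpm6a in 25 of 27. The block fit of the replicate number moved the count to 2, against 4 without it, and the best correlate of a library carried its own number in 3 of 16 cases. Levels of Msln, Muc16, Upk3b, Upk1b, Lrrn4 and Krt19 in the banded libraries rest on few counts.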
